A study of Fundulus heteroclitus with 36 samples.

Results

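The genes described here are the 98 genes of the Atlantic killifish (Fundulus heteroclitus) whose RefSeq symbols place them in families of synaptic vesicle release and membrane fusion: synaptotagmins, syntaxins, SNAP25 and VAMP proteins, syntaxin-binding proteins, complexins, NSF, SV2 and synaptophysin, synapsins, Rab3 proteins and active-zone proteins. They were picked by symbol from 31637 genes, of which 17443 carry only a LOC number, so relatives without a family symbol are missed. Of the 98, 94 passed the filter on low counts and were tested among 23292 genes. The other 4 (bsnd, cplx4c, stx11a and syt18b) are described by level only. A group of 16 among the 98 share the start of a symbol but not the role: Rab proteins from rab30 to rab39bb, rab3gap2, rab3il1, the same bsnd, which is the barttin gene of chloride channels, and nsfl1c, a cofactor of the ATPase p97. The pair snap91a and snap91b encode the clathrin-assembly protein AP180, which acts in vesicle retrieval and is unrelated to SNAP25.

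RNA had been sequenced from the whole brains of 36 single embryos at 17 days after fertilisation, 6 in each of 6 groups. The embryos came from New Bedford Harbor (NBH), a PCB-polluted harbor whose killifish are known for their tolerance of these compounds, and from Scorton Creek (SCO), both in Massachusetts. PCB126, a dioxin-like polychlorinated biphenyl, was given to embryos from day 1 to day 7 at 40 ng/L (PCB40) or 400 ng/L (PCB400). The groups were NBH Control, NBH PCB40 and NBH PCB400, then SCO PCB40, SCO Hg Fed and SCO Control. The parents of SCO Hg Fed embryos had eaten a tuna diet high in methylmercury. The parents of the controls and of the PCB126-exposed embryos had eaten a salmon diet low in methylmercury, per the series' design text, so every group other than SCO Hg Fed shares that diet. Whether embryos within a group had common parents is not given in the sources used here, so p-values measure the spread between embryos only.

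A nerve terminal releases transmitter when a vesicle protein, VAMP2 (synaptobrevin), zips together with a syntaxin and SNAP25 of the plasma membrane into the SNARE complex. Munc13 (unc13) guides that assembly, synaptotagmin senses the calcium that triggers fusion, complexin holds the complex ready and NSF takes it apart for reuse. Other syntaxins, VAMPs and synaptotagmins run the same kind of fusion in the Golgi, endosomes and the general cell surface of all cells, so a family name alone does not mark a gene as synaptic.

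Library totals ran from 38508405 to 66448897 estimated reads (median 52852047), and 3 counts, taken as the floor, equal 0.0451 to 0.0779 counts per 1000000 reads (CPM), counting error only. Within-group libraries correlated at 0.927 to 0.971 across genes over 90 pairs. For the check of the tissue, 12 of 12 matched neuron markers (such as elavl3, gap43 and stmn2a) were detected, with summed levels of 2720 to 5170 transcripts per 1000000 (TPM) over the 36 libraries. In bulk tissue, fewer cells of a type and less RNA per cell cannot be told apart. The libraries also differ in a length slope, which is how steeply, across genes, a library's log2 level (as a difference from the average library) climbs with log2 transcript length: a positive value means that long transcripts read high. It ran from -0.116 to -0.035 in NBH Control and from 0.016 to 0.137 in SCO Control, with no overlap, and from -0.185 to 0.198 in SCO PCB40.

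Together the 98 genes took 0.756% to 1.24% of a library's reads. Levels between genes are given in TPM, which corrects for length, as the mean over the 36 libraries. Among the genes described one by one, neuronal fusion machinery led: snap25a, the plasma membrane SNARE, averaged 1670 ± 429 TPM, and the complexin cplx2l 880 ± 186 TPM (SD, n = 36). These were followed at a distance by stx12, an endosomal syntaxin, at 167 ± 28.4 TPM and vamp2 at 143 ± 46.6 TPM. The 4 of them held 37.6% to 54.1% of the summed TPM of all 98 genes in a library.

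Within the other roles, the highest member was syt4 among the synaptotagmins (107 TPM), nsfa for NSF (93.7 TPM), rab3c among the Rab3 proteins (69.5 TPM), rims3 among the priming and active-zone genes (53.0 TPM), syn2a among the synapsins (44.0 TPM), and sv2a, a glycoprotein of the vesicle membrane, among the vesicle membrane genes (24.0 TPM). For clathrin assembly it was snap91b (111 TPM), and among those matched by name only rab30, a Golgi Rab (92.3 TPM). The genes syt1a and syt1b, of the synaptotagmin that triggers fast release at mammalian synapses, stood lower, at 14.5 and 2.65 TPM, and stx1a averaged 24.4 TPM. The syntaxins stx16 (12.1 TPM) and stx4 (5.77 TPM), on which the exposure results turn, are of middling to low level. At the bottom, cplx4c averaged 0.00345 TPM. In each library 79 to 83 of the 98 genes were above 1 CPM.

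**Figure D1:**
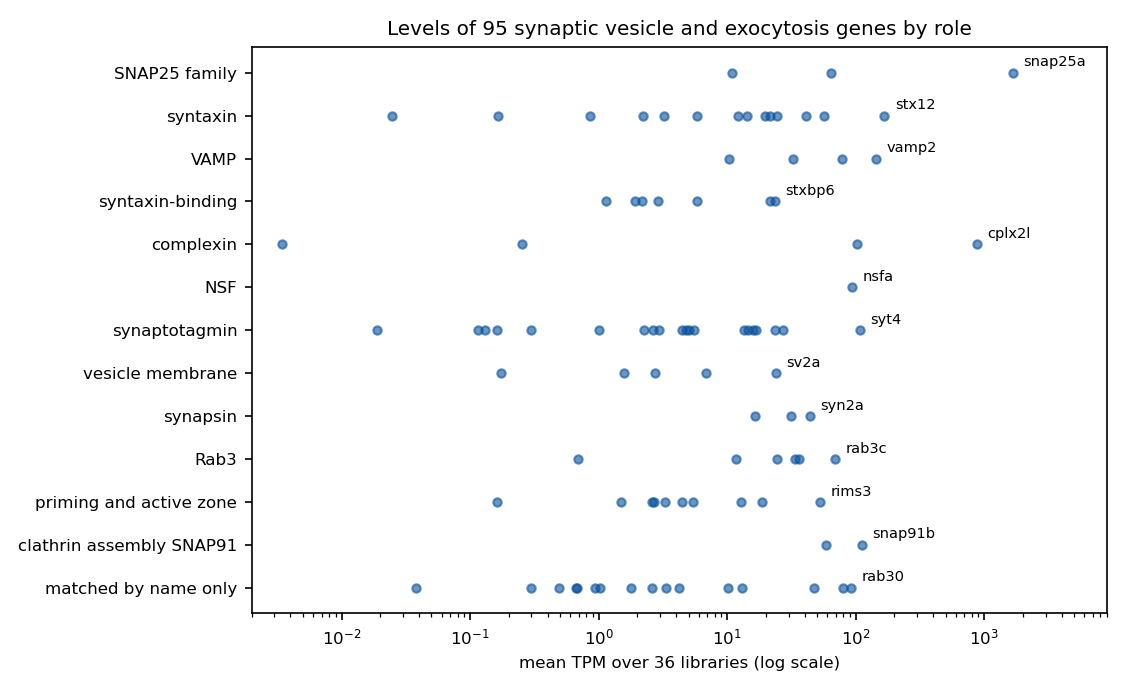
Mean level of 95 of the 98 genes over 36 libraries in TPM (log axis), 1 point per gene, in rows by role; the highest gene plotted in each role is named. The genes snap25a and cplx2l stand apart at 1670 and 880 TPM.

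Levels of single genes varied unequally between embryos. The coefficient of variation of the TPM over the 36 libraries was 10.0% for snap29, 11.6% for stxbp3 and 25.7% for snap25a, but 62.1% for cplx3b, a complexin known from retina in mammals, 116% for stx3a and 152% for syt19. For cplx3b the NBH groups held the extremes: 52.9 to 348 CPM in NBH Control, 86.7 to 239 CPM in NBH PCB40 and 59.0 to 262 CPM in NBH PCB400, while no SCO embryo exceeded 126 CPM. Photoreceptor markers (24 of 33 list entries matched) summed to 13.6 to 56.4 TPM in NBH embryos and 8.44 to 21.6 TPM in SCO embryos. Most of this sum was pde6gb, with 8.68 to 47.5 TPM in NBH embryos and 4.42 to 15.7 TPM in SCO embryos. The other 23 summed to 1.94 to 8.95 TPM in NBH embryos and 2.8 to 8.31 TPM in SCO embryos. The part of these markers in the spread of cplx3b was not tested.

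The first question is what 40 ng/L PCB126 did in SCO embryos. The share of reads on the 98 genes was 0.756%, 0.859% and 1.21% (lowest, median and highest) in SCO PCB40 embryos, against 0.953%, 1.02% and 1.18% in SCO Control embryos. In 5 of the 6 SCO PCB40 embryos the share was below that of every control, at 0.871% or less, and embryo 3 stood above every control. Of 94 tested genes 2 passed edgeR's quasi-likelihood test with a p under 0.05 after Benjamini-Hochberg adjustment (called), stx16 lower and stxbp3 higher, against 2.67% of all tested genes (0.751% higher, 1.92% lower). A further look at the unadjusted p showed 22 under 0.05, of them 7 higher and 15 lower, where 17.9% of all genes passed. The median log2 fold change was -0.11 over the 94 genes and 0.03 over all genes, with 34 above 0 and 60 below, where 46.7% of all genes were below 0. With the length trend of each library removed the median over the 94 was -0.02, with 44 above and 50 below, and with the length slope as a covariate it was -0.06, with 39 above and 55 below.

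Syntaxin 16 (stx16, NCBI gene 105939072) acts in mammals in traffic from endosomes to the trans-Golgi network. In SCO PCB40 embryos it read 17.1, 18.2, 21.0, 19.0, 21.8 and 24.8 CPM (replicates 1 to 6), against 33.9, 29.1, 31.0, 34.6, 29.5 and 31.0 CPM in SCO Control embryos. All 6 exposed embryos lay below the lowest control. The log2 fold change was -0.63 (SE 0.11), 1.55-fold lower, with an adjusted p of 7.47e-04 by edgeR's quasi-likelihood test (6 of 6 embryos below every control). Both annotated transcripts of stx16 read lower, with medians of 10.4 and 11.1 CPM without TMM scaling in SCO PCB40 embryos and 16.1 and 14.9 in SCO Control embryos. The call held in all 19 alternatives run, with adjusted p from 3.81e-06 to 0.0322. The 3 SCO PCB40 embryos with positive length slopes (1, 2 and 3, at 0.093, 0.198 and 0.019) read 17.1, 18.2 and 21.0 CPM, and the 3 with negative slopes (4, 5 and 6, at -0.185, -0.135 and -0.117) read 19.0, 21.8 and 24.8 CPM. The part of the slope in the level of stx16 within the group was not tested.

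The syntaxin-binding protein gene stxbp3 (gene 105936957), which in mammals regulates syntaxin 4 at the surface of non-neuronal cells, was 35.9 to 57.1 CPM (median 46.9) in SCO PCB40 embryos and 28.6 to 39.7 CPM (median 34.5) in SCO Control embryos. In 4 of the 6 exposed embryos it exceeded every control, and the groups overlapped. It rose by a log2 fold change of 0.43 (SE 0.12, edgeR adjusted p = 0.0463). The call was lost in 12 of 19 alternatives (adjusted p up to 0.154), among them those without SCO Control 1, 2, 3 or 4 (0.0758, 0.0941, 0.087 and 0.124) or without SCO PCB40 1, 4, 5 or 6 (0.0507, 0.145, 0.107 and 0.0916). The adjusted p of 0.154 was that with the length slope as a covariate, where the log2 fold change was 0.21. The call held with the length trend removed. SCO PCB40 embryos 1, 2 and 3, with positive length slopes, read 45.3, 35.9 and 39.7 CPM. Embryos 4, 5 and 6, with negative slopes, read 57.1, 48.4 and 51.3 CPM. The part of the slope in the level of stxbp3 was not tested. The partner of stxbp3 in mammals, stx4, had a log2 fold change of 0.17 (adjusted p = 0.568). It read 8.50 to 12.1 CPM in SCO PCB40 embryos and 7.99 to 9.88 CPM in SCO Control embryos.

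For sv2a (gene 105936047), a regulator of release and a marker of synaptic vesicles, SCO PCB40 embryos 1 to 6 had 145, 148, 136, 90.6, 106 and 113 CPM, against 174, 182, 169, 182, 176 and 188 CPM in SCO Control embryos. The groups did not overlap, and the exposed embryos split into a higher 3 and a lower 3. The log2 fold change was -0.54 (SE 0.15) and missed the threshold in edgeR's test, with an adjusted p of 0.0517 and 6 of 6 embryos below every control. The same 3 higher embryos had length slopes of 0.093, 0.198 and 0.019, and the lower 3 had -0.185, -0.135 and -0.117. The sv2a transcript is long, with an effective length of 6554 bases, and with the length trend taken out of each library its log2 fold change was -0.26 (adjusted p = 0.125). Without SCO PCB40 1 or 2 it passed the threshold (0.0389 and 0.025).

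Other presynaptic members of SCO PCB40 embryos had values in the same range of uncertainty. The synaptotagmin syt14a differed by -1.03 (SE 0.30, adjusted p = 0.0566), with all 6 exposed embryos below every control, and sypb, a synaptophysin of the vesicle membrane, by -0.99 (SE 0.32, adjusted p = 0.0821, 5 of 6 embryos below). With the length trend removed sypb passed the threshold (-1.18, adjusted p = 0.0258), as it did with the slope as a covariate (-1.50, 0.0022), and syt14a passed it with the replicate block (-1.08, 0.0427). By role, below 0 were 5 of 6 Rab3 genes, 4 of 5 vesicle membrane genes, all 3 synapsins, all 3 complexins, nsfa, both clathrin-assembly genes, 12 of 19 synaptotagmins, 6 of 9 syntaxin-binding genes and 6 of 10 priming and active-zone genes. The others were split, with 7 of 14 syntaxins, 2 of 4 VAMP genes, 1 of 3 SNAP25 family genes and 8 of 15 genes matched by name only below 0. Apart from stx16 and stxbp3, edgeR called none of them. DESeq2 called 10 of the 94 (8 lower, 2 higher), adding sv2a, syt14a, sypb, syt12, snap91a, rab3aa and rab3ab as lower and rab36 as higher. It called 5.59% of all genes (2.13% higher, 3.46% lower). The number called by edgeR was 4 without SCO PCB40 1, 8 without SCO PCB40 2 and 5 without SCO PCB40 3, and 1 without SCO PCB40 4 or 5 or without SCO Control 1, 2, 3 or 4. Over all 23292 tested genes edgeR called 622 with every library. Without SCO PCB40 1, 2 or 3 that count was 797, 1470 and 631, and in the settings with 1 call it was 247 to 429. The largest fold change of the set, 3.53 on the log2 scale for stx11b.1, came from a gene at 0 to 3.62 CPM in SCO PCB40 embryos and 0 to 0.131 CPM in SCO Control embryos (adjusted p = 0.101), and is named after its value was seen.

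**Figure D2:**
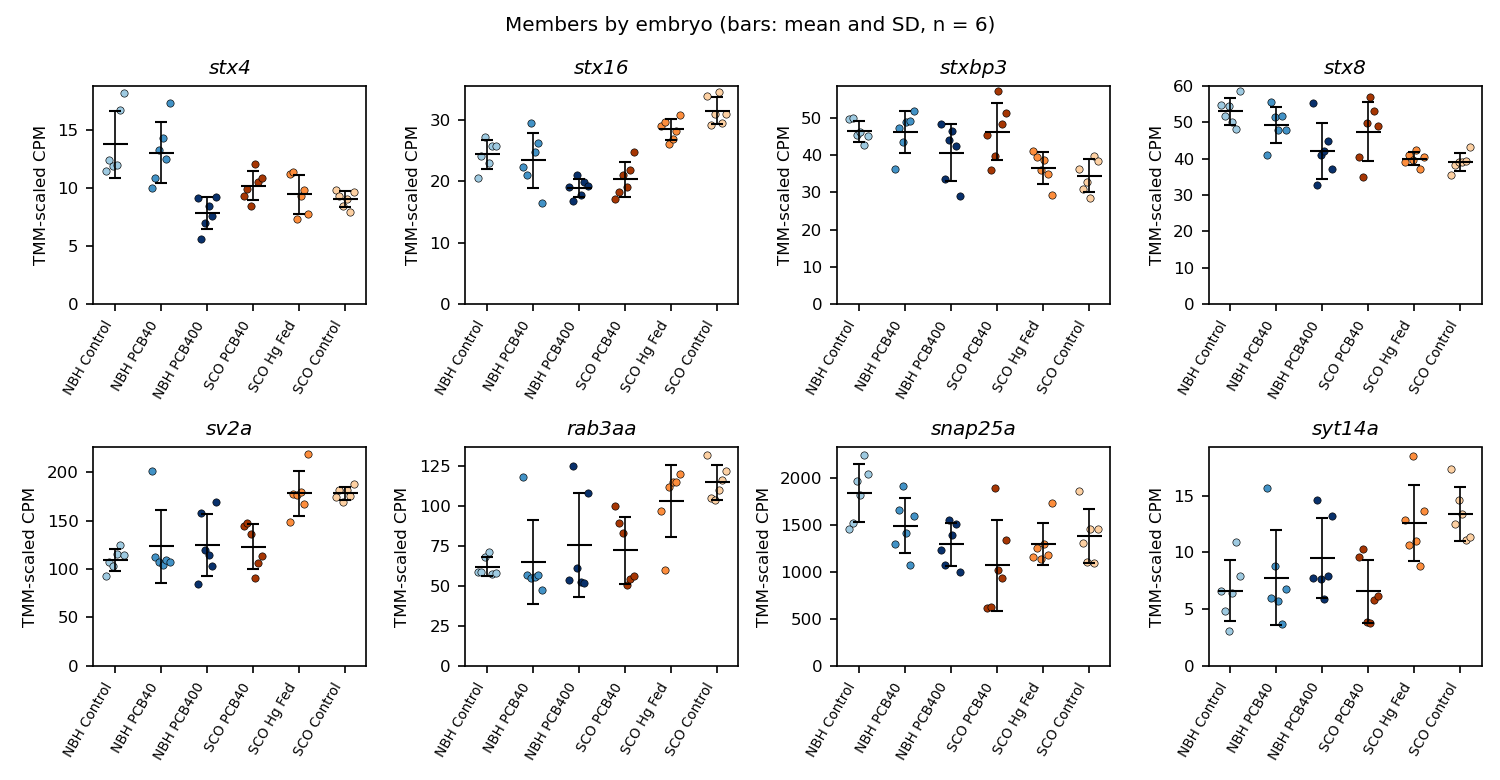
Level of 8 genes in CPM scaled by TMM, 1 point per embryo, with mean and SD bars (n = 6) for the 6 groups. The stx16 points of SCO PCB40 (17.1 to 24.8) sit below those of SCO Control (29.1 to 34.6), and the stx4 points of NBH PCB400 (5.62 to 9.23) below those of NBH Control (11.5 to 18.2).

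Related presynaptic genes outside the rule gave more calls. Of a list of 108 further presynaptic genes, 73 were matched and tested, and in SCO PCB40 embryos 6 fell and 0 rose, which is 8.22% of the 73 against 2.67% of all genes (1.92% lower). The median log2 fold change was -0.26 over the 73 and 0.03 over all genes. With the length trend removed 4 were called lower and the median was -0.12, where 1.52% of all genes were called (0.704% lower). The median over all genes was then 0.06. With the slope as a covariate 5 were called lower and 2 higher and the median was -0.14, with 50 of the 73 below 0. In that setting 3.25% of all genes were called (1.06% higher, 2.19% lower) and 50.3% of all genes were below 0. The 6 called lower without length correction were doc2d (-0.98, adjusted p = 0.00231), of the DOC2 family of calcium sensors, scamp1 (-1.83, 0.0216), a secretory carrier membrane protein, and ap2b1 (-0.58, 0.00209), of the clathrin adaptor AP2. The others were napbb (-0.49, 0.0292), a SNAP cofactor of NSF, cadpsb (-0.43, 0.0129), a priming factor for dense-core vesicles, and nrxn2a (-0.49, 0.0312), a neurexin (all edgeR). Of the marker lists, 4 of 12 skeletal muscle genes were called higher and 1 lower, 3 of 11 microglia and leukocyte genes higher, 3 of 10 oligodendrocyte genes lower and 1 of 9 pituitary genes lower, where 2.67% of all genes were called. None of 4 erythrocyte, 7 radial glia or 12 photoreceptor genes was called by edgeR. Of these DESeq2 called 1 radial glia gene lower and none of the others, where it called 5.59% of all genes (3.46% lower). An unadjusted p under 0.05 was found for all 4 erythrocyte genes (all higher), 2 radial glia genes and 1 photoreceptor gene. Over all genes 17.9% had such a p. The median log2 fold change was -0.48 over the oligodendrocyte list, with 9 of 10 below 0, and -0.41 over the pituitary list, with 8 of 9 below 0. Muscle markers (13 of 21 entries matched, none at 0 in all libraries) summed to 22.7 to 360 TPM in SCO PCB40 embryos and 22.4 to 47.8 TPM in SCO Control embryos. Microglia and leukocyte markers (11 of 14 matched) summed to 1150 to 2690 TPM in SCO PCB40 embryos and 1030 to 2160 TPM in SCO Control embryos, nearly all of it from apoeb. The other 10 summed to 10.7 to 26.8 TPM in SCO PCB40 embryos and 9.39 to 17.5 TPM in SCO Control embryos. Oligodendrocyte markers (10 of 11 matched) summed to 790 to 1610 TPM in SCO PCB40 embryos and 822 to 1440 TPM in SCO Control embryos. Pituitary markers (11 of 15 matched) summed to 38.1 to 529 TPM in SCO PCB40 embryos and 64.2 to 566 TPM in SCO Control embryos. Erythrocyte markers (4 of 7 matched) summed to 21.3 to 75.9 TPM in SCO PCB40 embryos and 7.91 to 47.1 TPM in SCO Control embryos. Neuron markers summed to 2720 to 4510 TPM in SCO PCB40 embryos and 3480 to 4930 TPM in SCO Control embryos, with 0 of 12 called by edgeR or DESeq2 and 1 with an unadjusted p under 0.05. With the length trend removed 0 of the 12 neuron markers were called. With the slope as a covariate 2 were called lower and 10 were below 0, where 3.25% of all genes were called. The part of these in the shifts above was not tested.

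Parental methylmercury was compared next, with the same SCO Control embryos as reference. No gene passed edgeR's test: 0 of the 94 and 0.0% of all genes were called. DESeq2 called 0 of the 94 and 77 of all genes, and 3 of the 94 had an unadjusted p under 0.05 (2 higher, 1 lower), where 5.45% of all genes did. Medians of the log2 fold change were 0.03 over the 94 genes and 0.00 over all. The share of reads was 0.936%, 1.03% and 1.24% (lowest, median and highest) in SCO Hg Fed embryos and 0.953%, 1.02% and 1.18% in SCO Control embryos, and the ranges overlapped. For sv2a, with 149 to 219 CPM in SCO Hg Fed embryos and 169 to 188 CPM in SCO Control embryos, the log2 fold change was 0.00 (adjusted p = 1). For stx4 it was 0.07 (adjusted p = 1), with 7.33 to 11.4 CPM in SCO Hg Fed embryos and 7.99 to 9.88 CPM in SCO Control embryos. Both genes overlapped between the groups.

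The 3 genes with the smallest p were stx3a, rab34b and unc13d. The log2 fold change of stx3a was -1.02 (SE 0.38, edgeR adjusted p = 0.608), and it rests on SCO Control embryo 3, at 37.1 CPM where the other 5 controls had 3.92 to 5.24 CPM. Without that embryo it was 0.13. The value of rab34b, a Rab matched by name only, was 1.09 (adjusted p = 0.711), with 0.387 to 4.88 CPM in SCO Hg Fed embryos and 0.354 to 1.01 CPM in SCO Control embryos. The highest, embryo 4, was alone above every control, and without it the value was 0.07. The Munc13 relative unc13d, which acts in granule release of blood cells in mammals, was above every control in 5 of 6 SCO Hg Fed embryos, with 0.457 to 0.920 CPM against 0.283 to 0.493 CPM in SCO Control embryos (log2 fold change 0.86, adjusted p = 0.787).

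In NBH embryos the dose series can be followed. The share of reads was 0.961%, 1.14% and 1.23% (lowest, median and highest) in NBH Control, 0.939%, 1.03% and 1.18% in NBH PCB40, and 1.04%, 1.11% and 1.18% in NBH PCB400, with overlap throughout. Between NBH PCB40 and NBH Control edgeR called 0 of 94 genes and 0.0% of all genes, DESeq2 called 0 of the 94 and 18 of all genes, and 2 of the 94 had an unadjusted p under 0.05 (3.06% of all genes). The median log2 fold change was 0.01 over the 94 genes and over all genes. The smallest p values belonged to syt9a (0.75, SE 0.28), rab30 (-0.35) and cplx2l (-0.36), each with an adjusted p of 1 in edgeR's test. The synaptotagmin syt9a read 19.7 to 37.5 CPM in NBH PCB40 embryos, and 12.5 to 16.9 CPM in 5 NBH Control embryos with the sixth at 33.3 CPM. For sv2a, NBH PCB40 embryo 1 had 201 CPM where the other 5 had 104 to 112 CPM and NBH Control embryos 92.5 to 125 CPM. That embryo was also the highest of its group for rab3aa (118 CPM, others up to 57.1) and the lowest for snap29 (62.3 CPM, others from 91.8), and its length slope was 0.150 where the other 5 had -0.172 to -0.099.

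At 400 ng/L 3 of 94 genes fell and 0 rose in edgeR's test against NBH Control (3.74% of all genes: 1.43% higher, 2.31% lower). The 3 were the syntaxins stx4 and stx16 and the p97 cofactor nsfl1c. At an unadjusted p under 0.05 there were 25, of them 15 higher and 10 lower, where 20.6% of all genes passed. The medians were 0.13 over the 94 genes and 0.05 over all, with 61 of the 94 above 0 and 33 below. With the length slope as a covariate 44 were above and 50 below, where 49.6% of all genes were above 0. By role, 15 of 19 synaptotagmins and 9 of 10 priming and active-zone genes were above 0, where 55.1% of all genes were, and 5 of these synaptotagmins and 4 of these priming genes had an unadjusted p under 0.05. Above 0 were also 4 of 6 Rab3 genes, 4 of 5 vesicle membrane genes, all 3 synapsins, 5 of 9 syntaxin-binding genes and 2 of 3 complexins. An unadjusted p under 0.05 was found for 3 Rab3 genes (1 higher, 2 lower), 3 syntaxin-binding genes (3 higher) and 1 complexin (lower). Below 0 were 3 of 4 VAMP genes, 2 of 3 SNAP25 family genes, both with an unadjusted p under 0.05, and 7 of 14 syntaxins, 3 of them with such a p. Beyond the 3 genes named above, edgeR called none in any role, and DESeq2 added syt1a as higher (0.44, adjusted p = 0.0486) and stx8 as lower (-0.34, adjusted p = 0.0326). In all DESeq2 called 5 of the 94, where it called 6.72% of all genes (2.51% higher, 4.21% lower). In edgeR's test the calcium sensor syt1a had a log2 fold change of 0.45 (SE 0.15, adjusted p = 0.0775), with 91.6 to 136 CPM in NBH PCB400 embryos and 74.3 to 107 CPM in NBH Control embryos.

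Syntaxin 4 (stx4, gene 105936288) is in mammals the syntaxin of surface delivery in many cell types, such as the insertion of glucose transporters. In NBH PCB400 embryos it read 9.15, 5.62, 7.03, 8.50, 7.59 and 9.23 CPM (replicates 1 to 6), against 11.5, 12.4, 11.9, 12.0, 16.8 and 18.2 CPM in NBH Control embryos. All 6 lay below the lowest control. It fell by 0.81 on the log2 scale (SE 0.15), 1.76-fold lower, with an adjusted p of 0.00262 in edgeR's test and 6 of 6 embryos below every control. The call held in all 19 alternatives, with adjusted p from 2.26e-05 to 0.0187. NBH PCB40 embryos lay at 10.0 to 17.4 CPM, so NBH PCB40 overlapped NBH Control, and NBH PCB400 overlapped neither group. Against NBH PCB40 the log2 fold change was -0.73 (SE 0.15, adjusted p = 0.00921, 6 of 6 embryos below every NBH PCB40 embryo), the only 1 of 94 called there, where 3.53% of all genes were called (1.12% higher, 2.41% lower) and 20.2% had an unadjusted p under 0.05. With the 2 groups alone in the fit its adjusted p was 0.0527. The number called there was 12 without NBH PCB40 embryo 1, 4 without NBH PCB400 embryo 6 and 2 without NBH PCB40 embryo 2 or 6. Over all 23292 tested genes the count moved too, from 822 with every library to 2594 without NBH PCB40 embryo 1. It was 672 without NBH PCB40 embryo 2 and 429 without NBH PCB40 embryo 6. The 2 comparisons share the NBH PCB400 embryos.

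In NBH PCB400 embryos stx16 was 16.8 to 21.0 CPM (median 19.2) and in NBH Control embryos 20.6 to 27.2 CPM (median 24.9), with 5 of 6 exposed embryos below every control. It fell by 0.36 (SE 0.11, edgeR adjusted p = 0.0463). For nsfl1c the values were 50.5 to 83.6 CPM in NBH PCB400 embryos and 68.9 to 99.9 CPM in NBH Control embryos, again with 5 of 6 below every control, and it fell by 0.52 (SE 0.15, adjusted p = 0.0434). Both calls sit near the threshold: stx16 lost it in 12 of 19 alternatives (adjusted p up to 0.127) and nsfl1c in 13 (up to 0.117), including, for stx16, leaving out any NBH PCB400 embryo but 6 or any NBH Control embryo but 1, and, for nsfl1c, any NBH PCB400 embryo but 6 or any NBH Control embryo but 3. The direction stayed in each, and 1 of the 94, stx4, was still called without NBH Control 2, 4, 5 or 6 or NBH PCB400 2, 3, 4 or 5. Removal of NBH Control 2 gave 0.0808 for stx16 and 0.0927 for nsfl1c, and removal of NBH PCB400 2 gave 0.127 and 0.0915.

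Neuron markers summed to 3280 to 3570 TPM in NBH PCB400 embryos and 4000 to 5170 TPM in NBH Control embryos with no overlap. By edgeR 2 of 12 were called lower, where 3.74% of all genes were called (1.43% higher, 2.31% lower). The highest of them, tubb5, had 808 to 1440 TPM in NBH PCB400 embryos and 1490 to 2580 TPM in NBH Control embryos. The other 11 overlapped, with sums of 2110 to 2480 TPM in NBH PCB400 embryos and 2370 to 2610 TPM in NBH Control embryos. DESeq2 also called 2 of the 12 lower, where it called 6.72% of all genes (4.21% lower). With the length trend removed 2 were called lower and 10 were below 0, where 3.66% of all genes were called (2.04% lower). With the slope as a covariate 0 of 12 were called and 10 were below 0, where 2.14% of all genes were called (0.923% lower). Beside these markers, snap25a read 994 to 1550 CPM in NBH PCB400 embryos and 1450 to 2240 CPM in NBH Control embryos (log2 fold change -0.51, adjusted p = 0.135). Erythrocyte markers did not overlap either, with sums of 25.3 to 40.1 TPM in NBH PCB400 embryos and 9.72 to 22.9 TPM in NBH Control embryos. Of these 4 genes edgeR called 0. Of 11 microglia and leukocyte genes it called 1 higher and 1 lower. It called 0 of 7 radial glia, 10 oligodendrocyte, 9 pituitary, 12 photoreceptor and 12 muscle genes. The sums of those lists overlapped. Whether these marker differences have a part in the 3 calls was not tested. The genes sv2a and rab3aa split NBH PCB400 by embryo: embryos 2 and 6 had 158 and 169 CPM of sv2a and 125 and 108 CPM of rab3aa, and the other 4 had 84.6 to 120 and 52.0 to 61.4 CPM. The same 2 embryos had the highest length slopes, 0.152 and 0.163 where the others had -0.098 to 0.016. The sv2a log2 fold change of 0.19 (adjusted p = 0.512) became -0.03 with the length trend removed. In the list of further presynaptic genes 1 of 73 fell, the clathrin heavy chain cltca (-0.66, edgeR adjusted p = 0.0266), and 0 rose. That is 1.37% of the 73, against 3.74% of all genes (1.43% higher, 2.31% lower).

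**Figure D3:**
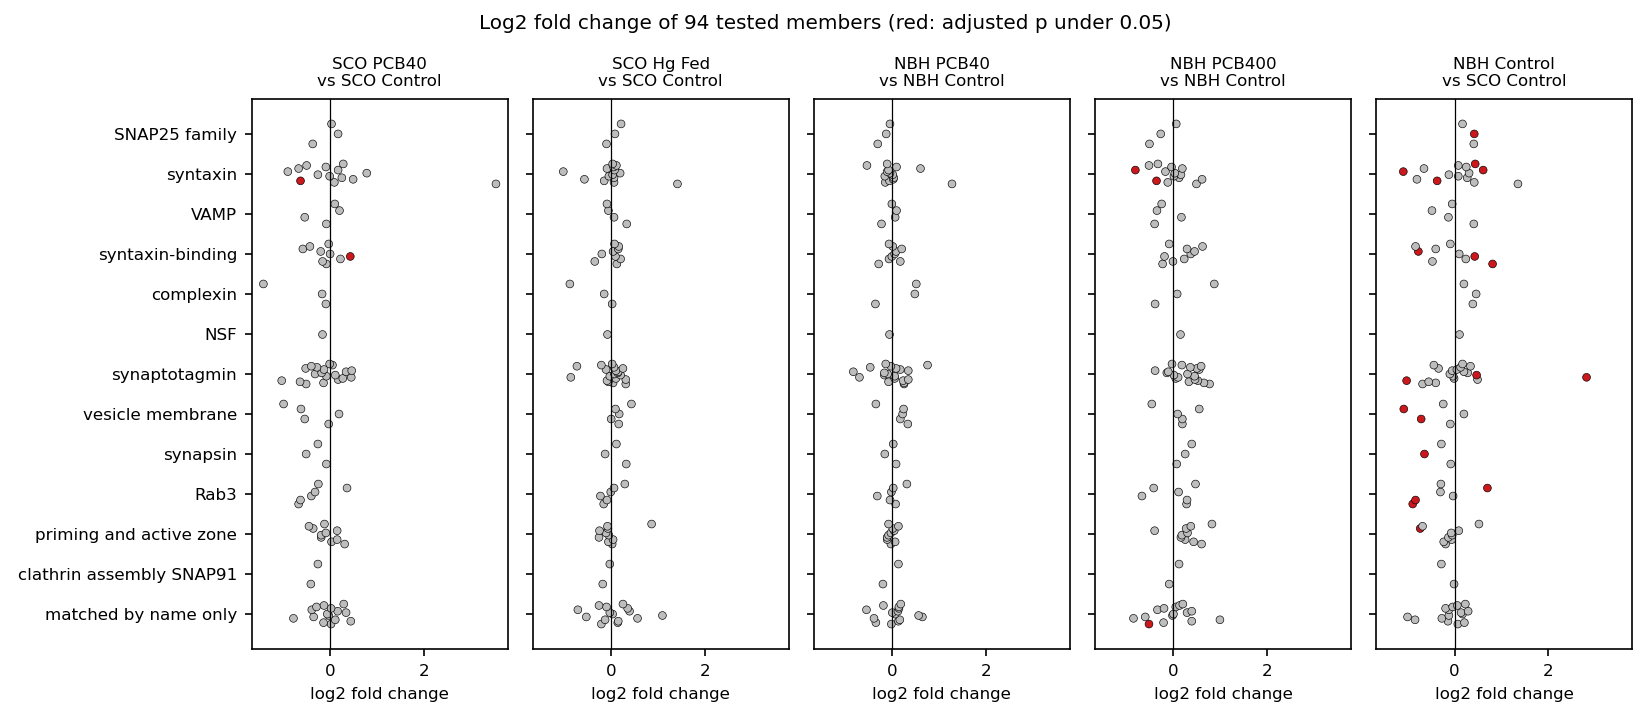
Log2 fold change of the 94 tested genes in 5 comparisons, 1 point per gene, in rows by role, with red for an adjusted p under 0.05 (edgeR). Red points number 2, 0, 0, 3 and 18 from left to right, and the comparison of the populations is the only panel with red in most roles.

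Whether the response to 40 ng/L differed between populations was tested directly, as NBH minus SCO. Of the 94 genes 0 were called by edgeR and 0 by DESeq2, and 10 had an unadjusted p under 0.05 (7 higher, 3 lower), where 0.0172% of all genes were called and 9.17% had such a p. The smallest p was that of stx16, with a difference of 0.57 on the log2 scale (SE 0.15, adjusted p = 0.192), then sv2a at 0.70 (SE 0.22, adjusted p = 0.288) and syt14a at 1.26 (SE 0.42, adjusted p = 0.342). The 3 differences are positive: the NBH fold change lay above that of SCO. For stx4 the difference was -0.25 (adjusted p = 0.741). This test thus showed no difference between populations in the response of these genes, which does not show that they responded alike.

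More of the genes were called between the unexposed populations than between any exposure group and its control. Of the 94 genes 18 were called between NBH Control and SCO Control, 8 higher and 10 lower in NBH, which is 19.1% of the 94 against 17.4% of all genes (7.33% higher, 10.0% lower), so the share is near that of all genes. At an unadjusted p under 0.05 there were 34 (15 higher, 19 lower), with 33.2% over all genes. The median log2 fold change was -0.05 over the 94 genes and -0.01 over all, with 41 above 0 and 53 below. The sign over the 94 turned with the length settings, to 0.04 with the length trend removed (51 above, 43 below) and 0.09 with the slope as a covariate (60 above, 34 below). Over all genes the medians in these settings were 0.02 and -0.01, with 52.1% and 48.3% above 0. The comparison shares SCO Control embryos with those of PCB40 and of methylmercury in SCO, and NBH Control embryos with those of PCB40 and PCB400 in NBH. The calls of stx4 and stx16 here and in NBH PCB400 thus rest on the same NBH Control embryos.

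Higher in NBH Control were the surface syntaxin stx4 and its partner stxbp3. For stx4 the range was 11.5 to 18.2 CPM in NBH Control and 7.99 to 9.88 CPM in SCO Control (log2 fold change 0.61, SE 0.14, adjusted p = 0.00658), and for stxbp3 it was 42.6 to 49.9 CPM in NBH Control and 28.6 to 39.7 CPM in SCO Control (0.43, SE 0.12, adjusted p = 0.0151). All 6 NBH Control embryos exceeded every SCO Control embryo for both genes. The same was true of the endosomal syntaxin stx8, with 48.3 to 58.7 CPM in NBH Control and 35.6 to 43.2 CPM in SCO Control (0.44, adjusted p = 0.00684), and of snap29, a SNAP25 relative of intracellular fusion, with 93.3 to 106 CPM in NBH Control and 70.2 to 81.3 CPM in SCO Control (0.42, adjusted p = 0.0189). Also higher were rab3da (0.70, adjusted p = 0.0157, 5 of 6 embryos above), syt1b (0.47, 0.0313, 3 of 6) and syt19 (2.81, 0.0417, 3 of 6).

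The value of syt19 came from 3 NBH Control embryos at 4.40 to 8.86 CPM, the other 3 lying at 0.200 to 0.326 CPM and SCO Control embryos at 0.132 to 1.05 CPM. Levels of several CPM were also seen in 1 NBH PCB40 embryo (9.09 CPM) and 4 NBH PCB400 embryos (3.41 to 9.06 CPM), while no SCO embryo exceeded 2.03 CPM. High and low embryos were thus mixed within each NBH group.

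Among the 10 genes lower in NBH Control were 2 of 5 vesicle membrane genes and 2 of 6 Rab3 genes, a family in which rab3da was higher. The range of sv2a was 92.5 to 125 CPM in NBH Control and 169 to 188 CPM in SCO Control (log2 fold change -0.71, SE 0.15, adjusted p = 0.00382, 6 of 6 embryos below). Its relative sv2ca was 2.49 to 4.11 CPM in NBH Control and 4.83 to 7.65 CPM in SCO Control (-1.08, SE 0.35, adjusted p = 0.0328, 6 of 6). The Rab3 proteins tether vesicles at the active zone: rab3aa was 57.7 to 71.0 CPM in NBH Control and 104 to 132 CPM in SCO Control (-0.89, SE 0.22, adjusted p = 0.0089). For rab3ab the range was 79.3 to 147 CPM in NBH Control and 152 to 240 CPM in SCO Control (-0.83, SE 0.21, adjusted p = 0.00795). Neither gene overlapped between the groups. Likewise without overlap were syn2a, a synapsin that clusters vesicles (-0.64, adjusted p = 0.023), stxbp5a, a tomosyn (-0.77, 0.0352), syt14a (-1.02, 0.0207) and stx16 (-0.37, 0.0167). The last pair, rims4 of the RIM family (-0.73, 0.0133) and stx3a (-1.09, 0.043), overlapped, and the stx3a value was 0.06 without SCO Control embryo 3. In the list of further presynaptic genes 13 of 73 were lower and 6 higher in NBH Control, which is 26.0% of the 73 against 17.4% of all genes (10.0% lower, 7.33% higher). With the length trend removed 8 were lower and 7 higher, where 11.5% of all genes were called. With the slope as a covariate 0 were lower and 1 higher, where 2.31% of all genes were called. Among the 13 lower was the vesicular glutamate transporter slc17a7a (-2.79, adjusted p = 0.00124). Of 12 neuron markers 2 were called higher and 0 lower in NBH Control, with 10 above 0 and a median of 0.33. With the length trend removed 5 were called higher and 0 lower. With the slope as a covariate 0 were called and 6 were above 0. Neuron sums were 4000 to 5170 TPM in NBH Control and 3480 to 4930 TPM in SCO Control, with overlap. The part of these markers in the differences above was not tested.

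The length slope moves with this comparison. The median effective length was 1636 bases for the 8 genes higher in NBH Control and 3744 bases for the 10 lower ones, against 2229 bases for the 94 tested genes. With the length trend taken out of each library 15 of the 94 were called, where 11.5% of all genes were. Of the 18 calls 12 remained, among them rab3aa, rab3da, rims4, snap29, stx16, stx3a, stx4, stx8, stxbp3, sv2a and syt14a. Lost were rab3ab, stxbp5a, sv2ca, syn2a, syt19 and syt1b. The value of sv2a shrank to -0.33 (adjusted p = 0.0179), while those of stx4 (0.54, 0.0114) and stx16 (-0.38, 0.0128) moved little. With the slope as a covariate 0 of 94 were called, where 2.31% of all genes were. The log2 fold changes were then 0.06 for snap29, 0.11 for stxbp3, 0.17 for stx8, 0.28 for rab3da and 0.42 for stx4. They were -0.06 for stxbp5a, -0.10 for sv2ca, -0.16 for syn2a, -0.28 for sv2a, -0.30 for rab3aa and -0.34 for syt14a. Those of rims4 and rab3ab were -0.42 and -0.45. Those of stx16 (-0.42), syt1b (0.46), stx3a (-0.95) and syt19 (2.34) lay nearer to the values without correction. The slopes of the 2 control groups do not overlap: population and slope cannot be told apart here. Single libraries also ended calls: stxbp5a, sv2ca, syn2a, syt19, syt1b and stx3a lost theirs without 1 or more control libraries. Highest adjusted p values were 0.0776 for stxbp5a and 0.0658 for sv2ca without NBH Control 6, 0.0534 for syn2a without SCO Control 1, 0.111 for syt19 and 0.0963 for syt1b without NBH Control 5, and 0.862 for stx3a without SCO Control 3.

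**Figure D4:**
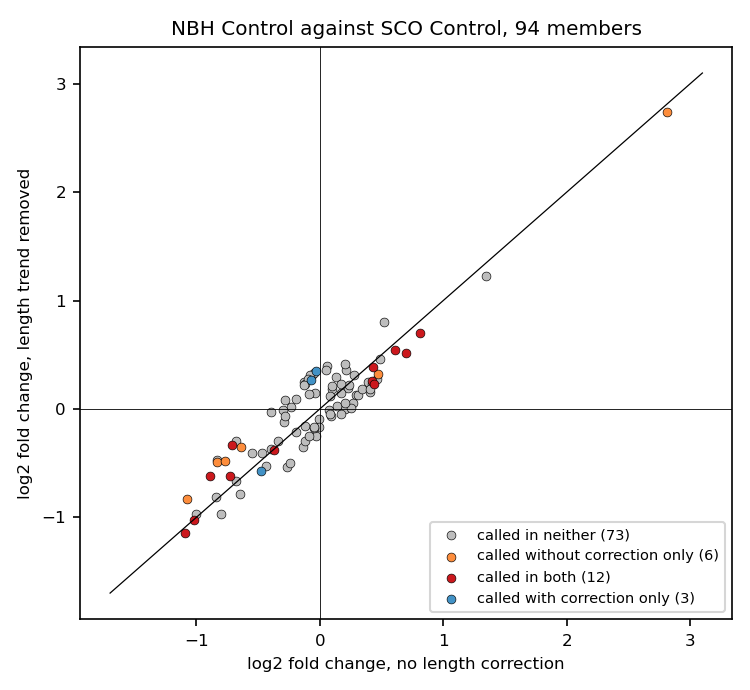
Log2 fold change of NBH Control over SCO Control for the 94 tested genes without length correction (x axis) and with the length trend removed (y axis); the line marks equal values and colours the calls. Calls in both number 12, without correction only 6, with correction only 3.

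Over all 6 groups stx16 and stx4 ordered differently. The median stx16 level was 31.0 CPM in SCO Control, 28.5 in SCO Hg Fed, 24.9 in NBH Control, 23.5 in NBH PCB40, 20.0 in SCO PCB40 and 19.2 in NBH PCB400. Each group overlapped in range with its neighbours in this order, and SCO PCB40 and NBH PCB400, the PCB126 groups with a call for stx16, came last. The median stx4 level was 12.9 CPM in NBH PCB40, 12.2 in NBH Control, 10.2 in SCO PCB40, 9.60 in SCO Hg Fed, 9.19 in SCO Control and 8.05 in NBH PCB400, and the neighbours in this order overlapped in range. The sv2a level went with the length slope at both ends of its range. Every embryo with a slope of -0.069 or below had 84.6 to 116 CPM, and no embryo with a slope of 0.042 or above was below 145 CPM. Those in between, from -0.035 to 0.019, had 103 to 125 CPM in NBH embryos and 136 to 188 CPM in SCO embryos. At the same slope of 0.016, NBH PCB400 embryo 5 had 103 CPM and SCO Control embryo 6 had 188 CPM, and these embryos differ in PCB126 exposure too. The parts of population, exposure and slope in the level of sv2a were not tested.

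**Figure D5:**
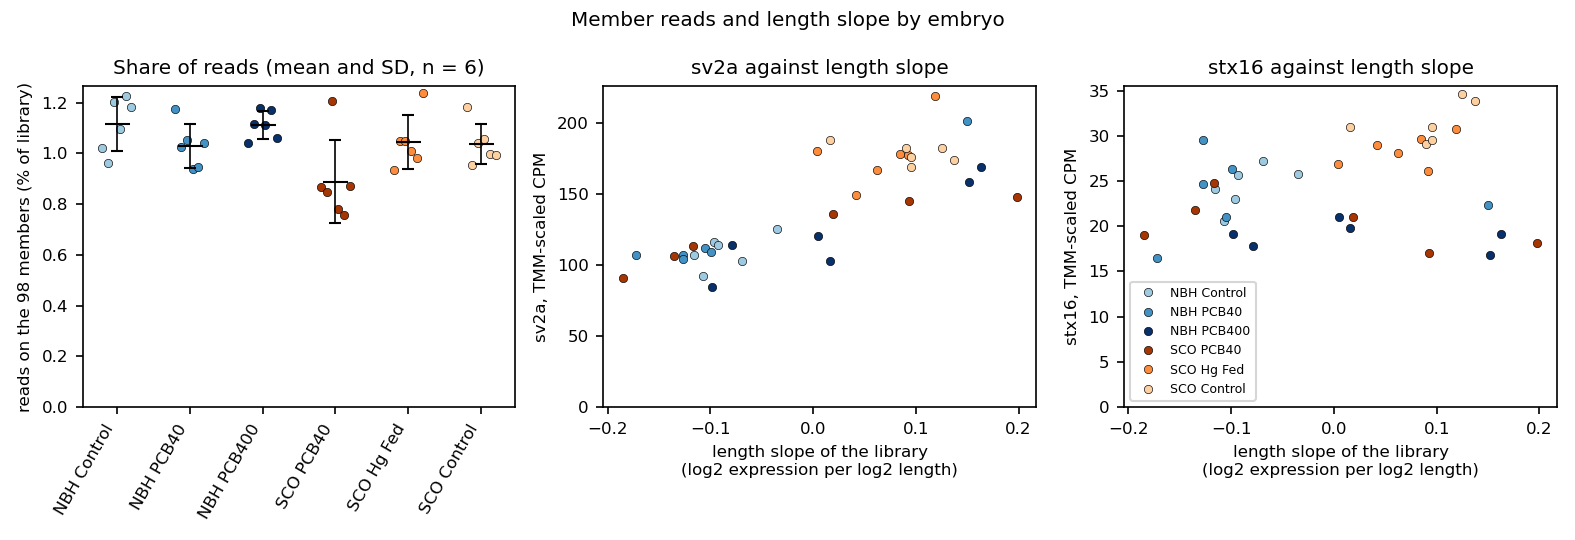
Left, share of a library's reads on the 98 genes (%) by group, with mean and SD (n = 6); centre and right, CPM of sv2a and stx16 against the length slope of the library, 1 point per embryo. Embryo 3 of SCO PCB40 stands at 1.206% above the other 5 (up to 0.871%), and sv2a is low in every library with a slope of -0.069 or below (84.6 to 116 CPM).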

How the data were processed

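Brains of 36 single embryos were sequenced, and the analysis starts from 1 quantification table per embryo with 56244 RefSeq transcripts each. Per the file headers, the authors deposited estimated counts of reads per transcript (expected counts), TPM (transcripts per 1000000, which the authors' tool scaled by effective length) and transcript lengths in bases. Salmon 1.3.0 and edgeR 3.30.3 are named in the submitters' processing notes, with no role given. The genome build, trimming and strand setting are not given in the sources used here, so no coordinates are reported.

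Transcripts were joined to 31637 genes through the RefSeq table of assembly MU-UCD_Fhet_4.1. All transcripts matched. These expected counts were added up over the transcripts of a gene and then rounded to whole numbers. How reads were divided between close paralogs, such as the a and b copies of a gene, cannot be checked from these values, so levels of single copies are uncertain. Genes passing edgeR's filterByExpr by group (23292) were scaled by TMM and fitted with edgeR 4.0.16 (glmQLFit and glmQLFTest, R 4.3.3) in 1 model with a mean per group over all 36 libraries, and 7 contrasts were tested, two-sided. The common biological coefficient of variation was 0.39. Calls needed a p under 0.05 after Benjamini-Hochberg adjustment over all tested genes. Levels of a gene between embryos are TMM-scaled CPM, and levels between genes are summed TPM. The length slope used log2 CPM with a prior count of 2. The steps were tested on simulated counts that held no length slope, so that test does not bear on calls that moved with the slope.

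Alternatives were RLE factors, no filter, DESeq2 1.42.0, a replicate block, only the compared groups in the fit, the length trend removed as an offset (a spline with 4 degrees of freedom), the length slope as a covariate, and leaving out each library. Named were every gene called, the 3 with the smallest p where none was called, sv2a and stx4 in every comparison and the highest gene per role. Of the 98 genes 3 enter the sums and counts but are not reported here one by one. Genes named beyond that rule were chosen after their values were seen. The genes and lists were chosen with earlier results of these data known, so their counts are descriptions.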

Additional observations from a re-analysis of the deposited data

Results flagged for a closer look

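In 198 sets of 6 embryos (the named genes and the share of reads, by group), the highest or lowest embryo stood apart from the other 5 in 22 sets by Dixon's criterion for outliers (gap to the next embryo over the whole range above the 95% critical value). Chance flags about 1 in 20 groups, and flags in 1 embryo are not independent.

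NBH PCB40 embryo 1 gave 7 of them in CPM. It was the highest of its group for sv2a (201, next 112), rab3aa (118, next 57.1), rab3c (283, next 222), nsfa (291, next 227), sv2ca (9.14, next 3.38) and stxbp5a (8.88, next 5.34), and the lowest for snap29 (62.3, next 91.8). SCO Hg Fed embryo 6 gave 4: it was the highest for snap25a (1730, next 1300), cplx2l (1730, next 1250), syn2a (251, next 186) and stx3a (8.41, next 4.41). SCO PCB40 embryo 3 was the highest for nsfa (281, next 192) and for the share of reads on the 98 genes (1.206%, next 0.871%).

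The other sets were single genes. The highest embryo stood apart for stx3a in SCO Control 3 (37.1, next 5.24), syn2a in NBH PCB400 2 (242, next 150) and syt9a in NBH Control 5 (33.3, next 16.9). Among genes of low level, syt19 stood apart in NBH PCB40 3 (9.09), SCO PCB40 4 (2.03) and SCO Hg Fed 2 (0.668), rab34b in SCO Hg Fed 4 (4.88) and SCO PCB40 4 (1.35), and unc13d in NBH PCB40 2 (0.969).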

How the results depend on the processing

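Counts are of the 94 genes first and of all tested genes after. In SCO PCB40 against SCO Control (2 and 622), 1 of the 94 was called with no filter and with only the compared groups, and 10 with DESeq2; over all genes the counts were 1303 with DESeq2, 98 with only the compared groups and 354 with the length trend removed. Leaving out 1 library gave 1 to 8 and 247 to 1470. For SCO Hg Fed (0 and 0), the 94 gave 0 in every alternative; all genes gave 4 with RLE factors, 6 with no filter, 77 with DESeq2, 8 with the length trend removed, 11 with the slope covariate, and 0 to 7 without 1 library. For NBH PCB40 (0 and 0), DESeq2 called 18 of all genes and leaving out 1 library gave 0 to 1. For NBH PCB400 against NBH Control (3 and 870), the 94 gave 1 with no filter or the slope covariate and 5 with DESeq2; all genes gave 1565 with DESeq2 and 498 with the covariate. Without 1 library the ranges were 1 to 3 and 195 to 1359. Against NBH PCB40 (1 and 822), the 94 gave 3 with RLE factors, 5 with DESeq2, 2 with the length trend removed and 0 with only the compared groups; all genes gave 1593 with DESeq2, 126 with only the compared groups and 371 with the covariate. Without 1 library the ranges were 1 to 12 (12 without NBH PCB40 1, 4 without NBH PCB400 6) and 97 to 2594. For NBH Control against SCO Control (18 and 4048), only the compared groups gave 28 and 6270, the length trend removed 15 and 2686, the covariate 0 and 538, and leaving out 1 library 13 to 19 and 2726 to 3937. For the difference in response to 40 ng/L (0 and 4), all genes gave 76 with DESeq2, 2 with only the compared groups and 2 to 30 without 1 library.

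Values changed sign for sv2a, stx4 and stx3a, each in a comparison where it was not called or rests on 1 embryo. The cause was not tested. For sv2a in SCO Hg Fed (0.00), the log2 fold change was 0.00 with only the compared groups, 0.06 with the length trend removed and 0.05 with the covariate, and -0.07 to 0.05 without 1 library. In NBH PCB40 it was -0.03 to 0.21 without 1 library. In NBH PCB400 it was -0.03 and -0.11 in the length settings against NBH Control, and -0.01 with only the compared groups, -0.17 and -0.23 in the length settings and -0.09 to 0.21 without 1 library against NBH PCB40. For stx4 in NBH PCB40 it was -0.18 to 0.02 without 1 library. For stx3a it was -1.24 to 0.13 in SCO Hg Fed and -1.25 to 0.06 between the controls, the upper ends without SCO Control 3.

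Nothing in the labels ties equal replicate numbers of different groups, so they were not treated as pairs. Same-numbered libraries of different groups had deviations correlated over 0.1 in 7 of 90 pairs (mean r 0.017, from -0.286 to 0.361). The mean r was -0.003 for different numbers, and 6 of 36 libraries correlated best with their own number. A weak pairing could be missed by this check. With the replicate block 2, 0, 0, 3, 2, 16 and 0 of the 94 were called in the order above, and over all genes 1 in SCO Hg Fed. Limits: 6 embryos a group, a spread of 0.39 between embryos of a group, shared length slopes, and genes under 1 CPM near the counting floor.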
